A study of Drosophila melanogaster with 4 samples.

Results

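HP1a-enriched regions on chromosome 4 of Drosophila melanogaster, called clusters here, were described in adult head nuclei. They were all rows on chromosome 4 that the authors named as regions of significant enrichment: 53 of 3564 clusters in ChIP replicate 1, 107 of 4467 in ChIP replicate 2 and 88 of 5583 in the combined set of the series, 248 of 13614 rows in all. The choice used position alone, and no cluster value entered it. Both ChIP libraries came from heads of wild-type Oregon-R-modENCODE flies of the stage labelled mixed adult, raised in population cages, with chromatin crosslinked in formaldehyde and precipitated with the HP1 wa191 antibody. Each had 1 input library from the same material, of which no region list was used here. Heads were sieved from pools of flies and hold many cell types, so every value is an average over them. Nothing in the labels tells whether both replicates were drawn from 1 cage or from different ones, so the spread between them may be technical. All positions are on FlyBase r5, in which chromosome 4 is 1351857 bp long. Low coordinates lie towards the centromere and high coordinates towards the telomere.

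HP1a is a chromodomain protein that binds histone H3 methylated at lysine 9 and is the best known structural protein of fly heterochromatin. Chromosome 4 is the smallest autosome of this species. Most of its sequenced arm is packaged with HP1a although it carries active genes, and the histone methyltransferase Eggless is known to act there. RefSeq's Release 6 annotation lists 80 protein-coding genes on it. Regions are named by position alone, because gene annotation of this build was not used here.

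Each cluster carries a start, an end and a score. The score is the authors' own value. Its scale is unstated in the labels and file headers, and it was used mainly to describe and rank clusters within a list. Score differences taken within a list were averaged over the replicates, and a cut at 1 was applied to each list. Both uses take the replicate lists to be on a like scale, which the labels do not state. Read counts behind the clusters are not part of the lists, so the depth is unknown. Values that compare replicates rest on 2 libraries, for which an exact two-sided sign-flip test over libraries cannot give a p below 0.5. No p-value is therefore given, and spreads are the SD over the replicates.

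Along the chromosome the clusters formed long stretches of similar, intermediate length-weighted mean score, bounded by high-scored clusters at both ends. The stretches were separated by a few long gaps without clusters in either replicate, around which most clusters were short and low in score. Single low clusters also lay within the stretches. Of the clusters not beside a gap of 5 kb or more, 6 of 31 in replicate 1 and 27 of 88 in replicate 2 scored under 1. In replicate 1 the scores ran from 0.46 to 3.81 with a median of 1.58, and the lengths from 1301 bp to 92.1 kb with a median of 9713 bp. In replicate 2 the scores ran from 0.061 to 4.05 with a median of 1.29, and the lengths from 1327 bp to 51.9 kb with a median of 4983 bp. The combined set ran from 0.22 to 4.05 in score, median 0.97, and from 1001 bp to 86.3 kb in length, median 5766 bp. Replicate 2 thus had more and shorter clusters than replicate 1. Long clusters held much of the chromosome: those of 20 kb or more numbered 15 in replicate 1 and made up 79.0% of its covered bases. They numbered 12 in replicate 2 with 36.6% of the bases, and 18 among the combined clusters with 64.0%. By number they were 28.3% of the chromosome 4 clusters in replicate 1, against 6.76% of all clusters of that list. For replicate 2 the share was 11.2% against 4.21%, and among the combined clusters 20.5% against 5.07%.

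The longest clusters lay in different places of the chromosome. In replicate 1 they were 1128789 to 1220874 (92.1 kb, score 1.97), 593210 to 679570 (86.4 kb, score 1.83), 1024072 to 1104753 (80.7 kb, score 1.89), 133648 to 213612 (80.0 kb, score 1.94) and 1221997 to 1295937 (73.9 kb, score 1.84). In replicate 2 they were 1167716 to 1219628 (51.9 kb, score 1.88), 631614 to 679568 (48.0 kb, score 1.54), 914628 to 949857 (35.2 kb, score 2.08), 1259140 to 1293862 (34.7 kb, score 1.83) and 1075064 to 1104651 (29.6 kb, score 1.79). In the combined set they were 593292 to 679626 (86.3 kb, score 1.74), 1166552 to 1219898 (53.3 kb, score 2.00), 356092 to 406302 (50.2 kb, score 1.64), 765184 to 814280 (49.1 kb, score 1.88) and 1056974 to 1105012 (48.0 kb, score 1.79). Their scores, 1.54 to 2.08, were well below the highest of each list.

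**Figure D1:**
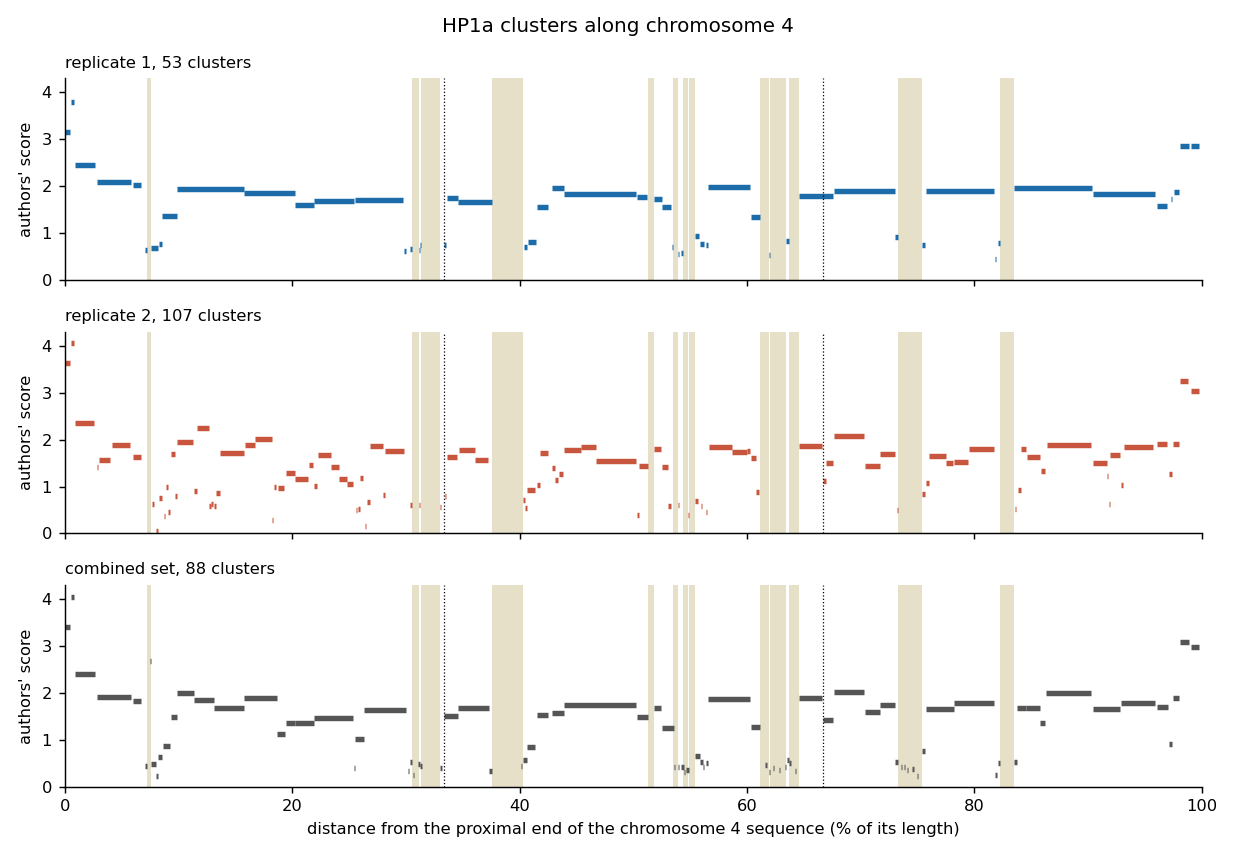
Every cluster of the 3 lists as a bar from its start to its end (x axis, % of the chromosome 4 sequence from its proximal end) at the height of the authors' score (y axis). Shaded bands are the 13 gaps of 5 kb or more outside both replicates and dotted lines divide the 3 equal parts. The 5 clusters nearest the ends stand at 2.35 or above in every list, and most others below 2.1.

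The highest scores lay at the 2 ends. In both replicates the 5 top-scored clusters were the same ones, the first 3 and the last 2 of the chromosome. The combined set had 4 of them among its top 5 (4.05, 3.41, 3.08 and 2.98). At the proximal end, the cluster that began within 30 bp of the sequence start (30 to 5948 in replicate 1, 25 to 5929 in replicate 2) scored 3.16 and 3.64. The next one, 7618 to 10796 in replicate 1 and 7928 to 11522 in replicate 2, held the highest score of the chromosome, 3.81 and 4.05. The following cluster, 12283 to 36564 and 12165 to 35070, scored 2.45 and 2.35. At the distal end, the cluster from 1325402 to 1336037 in replicate 1 and from 1325493 to 1335888 in replicate 2 scored 2.85 and 3.25. The last cluster, 1338421 to 1348672 and 1338393 to 1348583, scored 2.86 and 3.04. The outermost cluster was thus not the highest of its end, except narrowly at the distal end of replicate 1. The last 3185 bp of the sequence in replicate 1, and 3274 bp in replicate 2, held no cluster, whereas the proximal end was covered to within 29 and 24 bp of the first base. The length-weighted mean score over the clusters within 20 kb of an end was 2.71 and 2.77 at the proximal end and 2.86 and 3.14 at the distal end. It was 1.76 over the 48 interior clusters of replicate 1 and 1.59 over the 102 of replicate 2, where no cluster scored above 2.08 and 2.26. The end clusters thus lay above every interior cluster of their own replicate.

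Chromosome 4 was divided into 3 equal parts, proximal, central and distal, with the first 2 ending at 450619 and 901238. Coverage of the central part was the lowest, at 71.8% and 65.7% in the 2 replicates, with a mean of 68.7% ± 4.29 (SD, n = 2). Coverage of the proximal part was 86.7% and 78.0%, averaging 82.3% ± 6.16 (SD, n = 2). The distal part reached 85.2% and 80.5%, averaging 82.8% ± 3.32 (SD, n = 2). The combined clusters covered 88.1%, 75.9% and 87.7% of the parts, again with the central one lowest. The proximal and distal parts changed order between the replicates and did not differ beyond their spread.

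The part with the most clusters differed between the replicates. Replicate 1 had 18 proximal, 22 central and 13 distal clusters, and replicate 2 had 47, 31 and 29. In both the distal part had the fewest. The median length was 8729 bp, 9573 bp and 10252 bp from proximal to distal in replicate 1, and 3894 bp, 4983 bp and 8862 bp in replicate 2. The order was the same in both replicates, but the means, 6312 bp ± 3419, 7278 bp ± 3245 and 9557 bp ± 983 (SD, n = 2), overlapped within their spread. That spread includes the shorter clusters of replicate 2 in every part, so it does not measure the differences between parts within a replicate. With a minimum length of 2000 bp the order was not kept in the means, at 11614 bp, 9297 bp and 10516 bp. It was lost in replicate 1, at 17323 bp, 10382 bp and 10636 bp. Replicate 2 kept it, at 5905 bp, 8211 bp and 10396 bp. With clusters under 1000 bp apart merged, the central part was the lowest in replicate 1, at 5201 bp against 7688 bp and 15045 bp. With clusters under the median score left out, the mean was lowest in the distal part, at 13844 bp against 23104 bp and 20145 bp. The replicates differed in this. In replicate 1 the distal part was the shortest, at 12350 bp against 32759 bp and 26894 bp. In replicate 2 it was the longest, at 15338 bp against 13449 bp and 13396 bp. In the combined set the central part had the lowest median length, 3364 bp against 6679 bp and 10333 bp.

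The length-weighted mean score was 1.83 proximal, 1.68 central and 1.91 distal in replicate 1, and 1.62, 1.56 and 1.77 in replicate 2. The distal part exceeded the central part by 0.24 and 0.21 in the replicates, on average by 0.22 ± 0.019 (SD, n = 2). The proximal part exceeded the central part by 0.16 and 0.062, on average by 0.11 ± 0.066 (SD, n = 2). Without the clusters within 20 kb of an end, the distal difference was 0.18 and 0.13, and the proximal difference was 0.074 in replicate 1 and -0.054 in replicate 2. The proximal difference therefore changed sign between the replicates once the end clusters were left out, while the distal one stayed above 0 in both. With medians over clusters in place of length-weighted means, the proximal difference was 0.51 in replicate 1 and -0.39 in replicate 2, and the distal one 0.70 and 0.11.

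**Figure D2:**
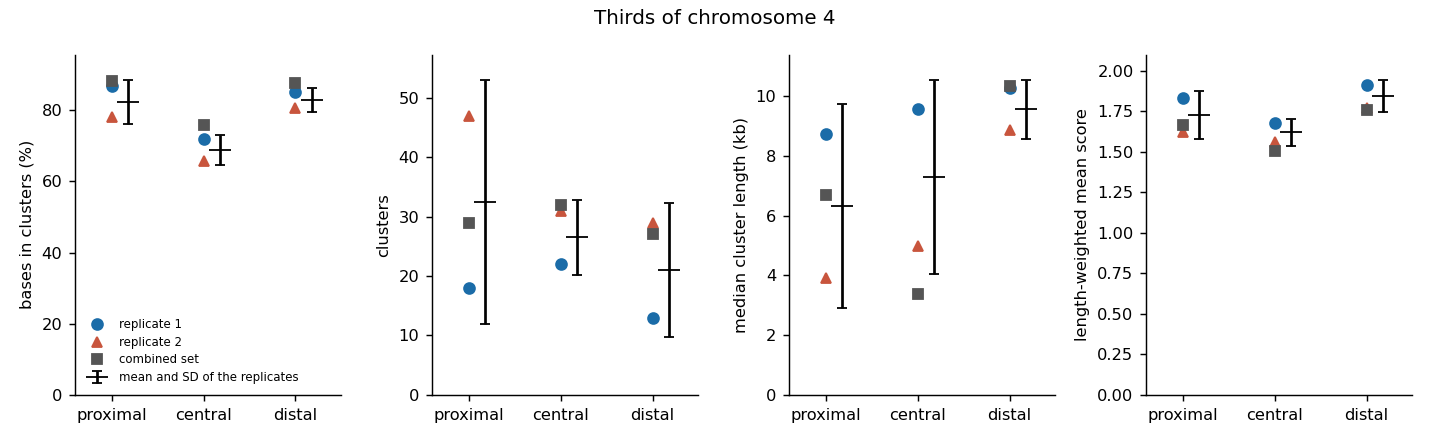
Coverage, number of clusters, median length and length-weighted mean score (y axes, each from 0) in the proximal, central and distal parts (x axis) for replicate 1, replicate 2 and the combined set, with the mean and SD of the 2 replicates beside them. The central part has the lowest coverage and the lowest weighted score in all 3 lists, at 65.7% to 75.9% and 1.51 to 1.68.

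In windows of 50 kb the 2 replicates gave the same outline. Across 27 windows, Spearman's rho between the replicates was 0.93 for coverage and 0.77 for the mean score of the covered bases. The windows share both libraries and neighbouring windows share clusters, so these are descriptions. In 8 windows both replicates were covered to at least 90%, and in 2 both were below 50%. The emptiest windows were 400001 to 450000, covered to 20.7% and 16.3%, and 500001 to 550000, covered to 22.7% and 14.1%. The fullest was 600001 to 650000 with 100% and 98.9%. Among the windows other than the first and last, the mean score stayed between 0.88 and 2.00 in replicate 1 and between 1.04 and 1.90 in replicate 2. The first window reached 2.54 and 2.47, and the last 2.32 and 2.48.

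Most of the long gaps lay in the central part. Whether a gap is free of HP1a or could not be mapped cannot be told apart in a list of regions, and the combined set had clusters in several of them. Its clusters covered 60.3% of the gap from 734506 to 740445, 31.6% of that from 860730 to 873104 and 26.4% of that from 991224 to 1019451. Bases outside the clusters of both replicates, apart from the 2 stretches at the chromosome ends, fell into 53 gaps of 240 kb. Only 13 of these were 5 kb or longer, and they held 186 kb, or 77.6% of it. The 21 gaps under 1 kb held 3.62%. The central part had 8 of the 13 long gaps with 106 kb, the distal part had 2 with 45.1 kb and the proximal part had 3 with 35.6 kb. Each replicate alone also had 13 gaps of 5 kb or more, 199 kb in replicate 1 and 234 kb in replicate 2. The longest single break of replicate 1 was 38.0 kb, at the gap from 507981 to 545228. That of replicate 2 was 47.3 kb, where that list lacked the 2 clusters of replicate 1 at 836792 to 838348 (score 0.53) and 858029 to 860729 (score 0.83).

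The 13 long gaps divided the chromosome into 9 stretches of 23.1 to 310 kb and 5 islands of 1.45 to 5.53 kb. The longest stretch ran from 102934 to 412825 and had 97.2% and 86.8% of its bases in clusters of replicates 1 and 2. Length-weighted mean scores of the 9 stretches lay between 1.57 and 2.28 in replicate 1, median 1.71, and between 1.43 and 2.16 in replicate 2, median 1.60. The 2 stretches that reach an end were the highest in both, 2.28 and 2.16 for the proximal one and 1.99 and 1.86 for the distal one. The other 7 differed little from each other: 1.57 to 1.84 in replicate 1 and 1.43 to 1.76 in replicate 2, with the stretch from 873105 to 991223 at the top in both and that from 700161 to 723238 at the bottom. The islands had length-weighted scores of 0.53 to 0.83 where replicate 1 had a cluster (4 of the 5) and of 0.39 to 0.61 where replicate 2 had one (3 of them). In each replicate the weighted scores of the islands therefore lay below those of all 9 stretches. Single clusters within the stretches scored as low as 0.46 in replicate 1 and 0.061 in replicate 2, lower than any island. Island clusters were also short, and score went with length, as given below. Of the 5 islands, 2 had clusters in both replicates, 420619 to 424113 and 728978 to 734505.

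Clusters beside the long gaps were short and low in score. A cluster was counted as beside a gap if it was the nearest of its list on either side. In replicate 1, 22 such clusters had a median score of 0.75, range 0.53 to 1.97, against 1.83, range 0.46 to 3.81, for the other 31. In replicate 2, 19 such clusters had a median of 0.69, range 0.39 to 1.86, against 1.42, range 0.061 to 4.05, for the other 88. The ranges overlapped in both replicates. The medians differed by -1.08 and -0.73, on average by -0.91 ± 0.25 (SD, n = 2). Among combined clusters they differed by -1.13. As length-weighted means, an alternative chosen after seeing the data, the scores differed by -0.23 and -0.21, on average by -0.22 ± 0.012 (SD, n = 2), in the same direction but much less. Median lengths were 3029 bp beside gaps and 13281 bp elsewhere in replicate 1, and 3056 bp and 6098 bp in replicate 2.

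The difference was small among longer clusters. For those of at least 5 kb, a class set after seeing the data, it was -0.13 and 0.010, on average -0.061 ± 0.10 (SD, n = 2). This rests on few clusters beside gaps. Replicate 1 had 4 of 5 to 20 kb and 3 of 20 kb or more, and replicate 2 had 4 and 2. Among clusters under 5 kb the median was 0.70 beside gaps (15 clusters) and 0.76 elsewhere (6 clusters) in replicate 1. In replicate 2 it was 0.61 (13 clusters) and 0.87 (41 clusters). With gaps of at least 2 kb the difference was -0.86 in replicate 1 and 0.038 in replicate 2, so that replicate 2 had the opposite sign. When the gaps were taken from the other replicate, so that the scored list did not define them, the difference was -0.49 and -0.60. In that setting 8 clusters of replicate 1 lay wholly inside gaps of replicate 2, with scores from 0.46 to 0.83. Similarly, 2 clusters of replicate 2 lay inside gaps of replicate 1, with scores of 0.39 and 0.57.

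The 10 longest gaps were also compared one by one. The gap from 507981 to 545228 (37.2 kb) had a cluster of 40.3 kb and score 1.67 on its proximal side in replicate 1, and one of 15.1 kb and score 1.56 in replicate 2. On its distal side the nearest clusters scored 0.70 and 0.71. The nearest clusters were thus high on the proximal side and low on the distal side in both replicates. In replicate 2 the proximal cluster ended 4999 bp further from the gap, and the combined set had a cluster of score 0.33 there, from 504328 to 507766. The second gap, 991224 to 1019451 (28.2 kb), had low clusters on both sides, 0.93 and 0.75 in replicate 1 and 0.50 and 0.83 in replicate 2. Its edges lay within 135 bp of each other in the replicates on the proximal side and within 65 bp on the distal side. The next, 424114 to 446339 (22.2 kb), was also flanked by low clusters, 0.74 and 0.74 in replicate 1 and 0.61 and 0.57 in replicate 2.

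The neighbouring gaps 826019 to 836791 (10.8 kb), 838349 to 858028 (19.7 kb) and 860730 to 873104 (12.4 kb) formed 1 uninterrupted break in replicate 2, between clusters of score 0.89 and 1.86. In replicate 1 the 2 short clusters named above separated them, between clusters of score 1.34 and 1.80. The gap from 1111934 to 1128788 (16.9 kb) differed between the replicates on both sides: its proximal neighbour scored 0.80 in replicate 1 and 1.79 in replicate 2, and its distal neighbour 1.97 and 0.51. The 92.1 kb cluster beside it in replicate 1 spanned a separate replicate 2 cluster of 1525 bp, the one that scored 0.51. The gap from 692976 to 700160 (7.18 kb) was the clearest exception. All 4 clusters beside it scored high, 1.76 and 1.73 in replicate 1 and 1.43 and 1.81 in replicate 2, and they were 8.21 to 12.4 kb long. The gaps from 412826 to 420618 (7.79 kb) and from 741900 to 748740 (6.84 kb) were flanked by clusters under 1 in both replicates.

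Of the 26 sides of the 13 long gaps, 20 were flanked by a cluster with a score under 1 in replicate 1 and 18 in replicate 2, of which 16 were the same sides. Sides are not separate clusters, because 1 cluster could be the nearest on several sides. The clusters under 1 beside these gaps numbered 16 in replicate 1 and 13 in replicate 2, and not all of them touched the gap. On 4 sides both replicates had a score of 1 or more. Where the flanking clusters of the replicates overlapped, on 14 sides, their edges differed by 25 to 4999 bp with a median of 209 bp. The largest of these differences was at the proximal edge of the 37.2 kb gap. On the remaining sides the flanking clusters did not overlap, and the edges of the replicates differed by up to 36483 bp.

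**Figure D3:**
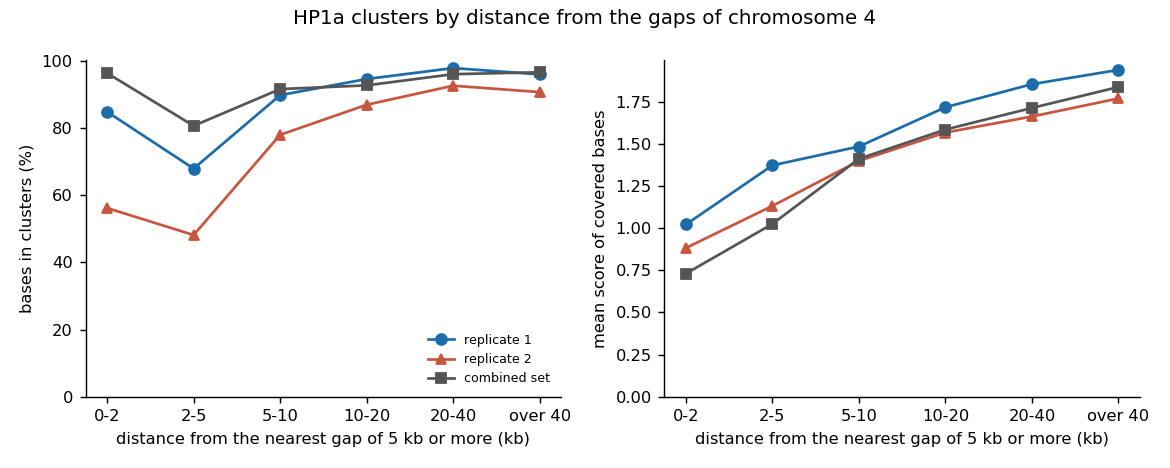
Share of bases inside clusters (left, %) and mean score of the covered bases (right) by distance from the nearest gap of 5 kb or more (x axis, kb) in the replicates and the combined set. The mean score is lowest within 2 kb of a gap, at 0.73 to 1.02, and highest beyond 40 kb, at 1.77 to 1.94.

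With gaps of at least 5 kb, the mean score was higher at each step away from the gaps. Covered bases within 2 kb of a long gap had a mean score of 1.02 in replicate 1 and 0.88 in replicate 2. From 2 to 5 kb it was 1.37 and 1.13, from 5 to 10 kb 1.48 and 1.40, from 10 to 20 kb 1.72 and 1.57, from 20 to 40 kb 1.85 and 1.66, and beyond 40 kb, where the end clusters lie, 1.94 and 1.77. Across clusters, Spearman's rho between score and distance to the nearest gap was 0.61 in replicate 1 and 0.29 in replicate 2. With gaps of at least 2 kb it was 0.47 and 0.040, and with gaps of at least 10 kb 0.39 and 0.098, so in replicate 2 the relation was weak with either. Each base carries the score of its whole cluster, so the profile within a cluster cannot be seen. Bases near a gap lie partly in the clusters beside gaps described above, and score also went with length, as given below. The steps are therefore not separate from those results. Coverage was lowest at 2 to 5 kb, 68.0% and 48.2%, and reached 97.9% and 92.6% at 20 to 40 kb. A gap ends by definition where a cluster of at least 1 replicate begins, so the value within 2 kb, 84.9% and 56.2%, is partly set by that rule.

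Score and length went together across the chromosome. Spearman's rho was 0.69 across the 53 clusters of replicate 1 and 0.82 across the 107 of replicate 2, and 0.81 and 0.85 without the 5 clusters nearest the ends. These clusters share a library and neighbour each other, so no p is given. In the interior of replicate 1, the median score was 0.65 for 9 clusters under 2 kb, 0.76 for 11 of 2 to 5 kb, 1.34 for 7 of 5 to 10 kb, 1.58 for 7 of 10 to 20 kb and 1.85 for 14 of 20 kb or more. In replicate 2 the medians were 0.50, 0.90, 1.43, 1.68 and 1.85 over 20, 33, 15, 23 and 11 clusters. Within each list the median was thus higher in every longer class. The end clusters did not follow this relation: the highest score of each replicate belonged to a cluster of 3179 bp and 3595 bp. A short interior cluster of replicate 1, 1301 bp from 1314590 to 1315890, also stood out with a score of 1.72. It was the shortest of its list and was chosen after its value was seen. Replicate 2 had a cluster of 3013 bp there, from 1313146 to 1316158, with a score of 1.26.

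**Figure D4:**
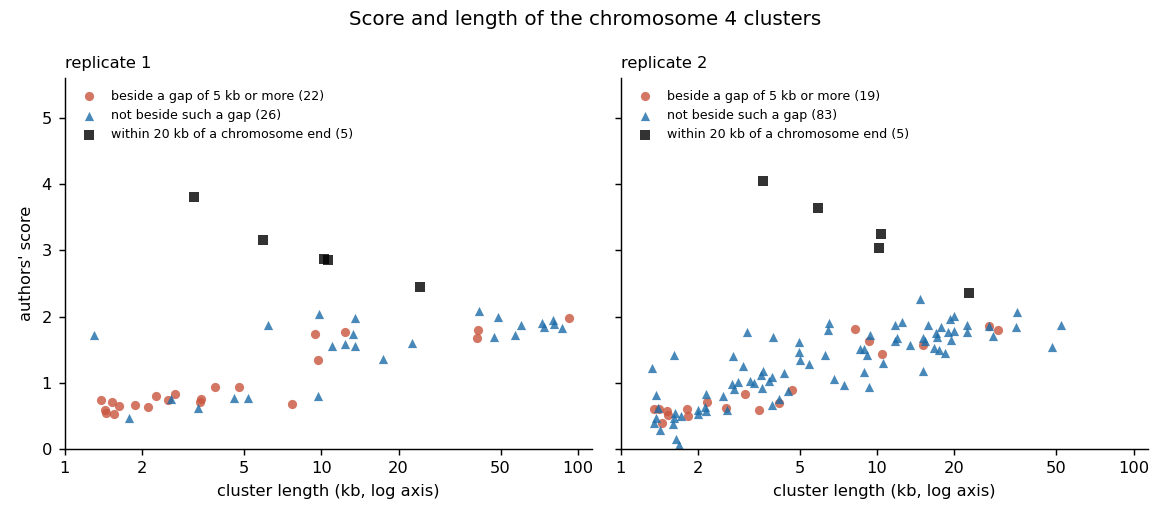
Score (y axis) against length (x axis, kb, log scale) of the clusters of replicate 1 (left) and replicate 2 (right), with those beside a gap of 5 kb or more, those not beside one and the 5 within 20 kb of an end marked apart. Interior clusters of 20 kb or more lie between 1.54 and 2.08, while most under 2 kb lie under 1.

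Scores of replicate 1 had a break around 1, a value chosen after seeing the data. The list had 22 clusters under 1, the highest at 0.93, and 31 above, the lowest at 1.34, with none between. The 22 were 41.5% of its chromosome 4 clusters, close to the 41.9% of all clusters of that list, so their number alone is not a result about chromosome 4. They held 6.44% of its covered bases. In replicate 2, 40 of 107 clusters lay under 1 (37.4%, against 46.7% of the whole list), and the scores had no break there, with 0.99 and 1.01 on either side. They held 10.4% of the covered bases. The combined set had 44 of 88 under 1 (50%, against 66.1%). Of the 22 in replicate 1, 17 lay within 5 kb of a long gap, against 9 of the 31 at or above 1. In replicate 2 these counts were 16 of 40 and 7 of 67. Low clusters were thus near gaps in a larger share than high ones in both lists, and 24 of the 40 in replicate 2 lay farther off.

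Replicate 2 had many breaks within clusters of replicate 1. Of the 53 clusters of replicate 1, 14 met 3 or more clusters of replicate 2, 8 met 2, 23 met 1 and 8 met none. The 14 covered 811 kb and had a median score of 1.88, and the 8 without a partner covered 14.8 kb with a median of 0.67. In the opposite direction 104 of 107 clusters of replicate 2 met exactly 1 cluster of replicate 1. Clusters of replicate 1 covered 81.2% of the chromosome, so these counts are partly set by that coverage. The same counts over all sequences were not computed. In bases, the replicate 2 list was mostly a finer division of the same stretches, with 10.4 kb of it outside replicate 1. The 5 clusters of replicate 1 met by the most parts were 133648 to 213612 (80.0 kb, score 1.94) and 345338 to 402144 (56.8 kb, score 1.72) with 8 parts each, and 213628 to 273803 (60.2 kb, score 1.87), 1128789 to 1220874 (92.1 kb, score 1.97) and 1221997 to 1295937 (73.9 kb, score 1.84) with 6 each.

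The breaks inside these clusters were narrow. In the first, 8 parts of 2143 bp to 28.2 kb were separated by breaks of 62 to 867 bp, and the parts scored from 0.58 to 2.26 with 5 of them under 1. In the second, the parts scored from 0.15 to 1.87, again with 5 under 1, and the lowest was 1641 bp from 356556 to 358196. Replicate 2 still covered 95.6% and 91.4% of the 2 clusters. Over all 15 clusters of replicate 1 of 20 kb or more, replicate 2 had 49 breaks, of 1 to 2609 bp with a median of 540 bp, 37 of them under 1000 bp. The 24 parts under 5 kb inside them, 15 of which scored under 1, had a median score of 0.88, and the 40 longer parts 1.70. Short pieces were thus low in score inside long stretches as well as beside gaps. Why replicate 2 was divided more finely was not tested.

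In bases, both replicates covered 1000 kb of the chromosome, 74.0%. Replicate 1 alone covered 98.2 kb in 134 stretches with a median of 440 bp, and replicate 2 alone 10.4 kb in 25 stretches with a median of 170 bp. The longest stretch found in only 1 replicate was 4999 bp, from 502982 to 507980, at the edge of the longest gap, inside the replicate 1 cluster of score 1.67. The next 4 were also of replicate 1: 403451 to 406319 (2869 bp), 858029 to 860729 (2701 bp), 1165107 to 1167715 (2609 bp) and 106242 to 108807 (2566 bp), in clusters of score 0.62, 0.83, 1.97 and 0.68. None reached 5 kb.

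Of the 88 combined-set clusters, 59 were met by both replicates, or 67.0%, against 45.8% over the whole combined set. They were 1827 bp to 86.3 kb long with a median of 10885 bp and a median score of 1.57. Replicate 1 alone met 9, with scores of 0.25 to 0.57, and replicate 2 alone met 2, with scores of 0.35 and 0.39. Neither replicate met 18, or 20.5%, against 29.6% over the whole set. These 18 were 1001 to 1971 bp long, 8 of them shorter than any replicate cluster, and 16 lay inside the 13 long gaps. Clusters met by neither replicate lie outside both lists by definition, and the long gaps held 77.6% of the bases in gaps. Their place in gaps is therefore not a result of its own. Apart from 1, the 18 scored 0.22 to 0.51. The exception, 1001 bp from 101544 to 102544, scored 2.68, the fifth highest value of the combined list on this chromosome, in a gap whose neighbours in replicate 1 scored 0.64 and 0.68. The same score, within 0.001, was given to 17 clusters of the combined set across all sequences, of 1001 to 5151 bp. A further 5 lay in the 28.2 kb gap from 991224 to 1019451, at 0.22 to 0.43, and 3 in the gap from 838349 to 858028, at 0.37 to 0.43. The combined set thus placed low-scored clusters inside gaps of both replicates. Its longest cluster, 593292 to 679626, matched 593210 to 679570 in replicate 1, which replicate 2 had as 3 parts of 19.9, 17.8 and 48.0 kb with scores of 1.78, 1.84 and 1.54.

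Beside other sequence, chromosome 4 had scores between those of heterochromatic sequence and the distal arms, and longer clusters than the distal arms. The median length was 9713 bp and 4983 bp in the replicates and 5766 bp in the combined set. It was 8885 bp and 6175 bp on the placed Het scaffolds of the X and the major autosomes, 11013 bp and 6827 bp in the proximal 1 Mb of 2L and 3L, and 2103 bp and 2080 bp on the distal arms. Chromosome 4 thus lay between both heterochromatic classes in replicate 1 and below both in replicate 2. In the combined set it also lay below both, which had medians of 8213 bp and 9736 bp. The median score of chromosome 4, 1.58 and 1.29, minus that of the Het scaffolds was -0.63 and -0.58, on average -0.60 ± 0.033 (SD, n = 2). Minus that of the proximal 1 Mb of 2L and 3L it was -0.58 and -0.53, on average -0.55 ± 0.032 (SD, n = 2). It exceeded that of the distal arms by 0.84 and 0.55, on average by 0.69 ± 0.20 (SD, n = 2). Weighted by length, the differences were -0.44 ± 0.033, -0.44 ± 0.0055 and 0.60 ± 0.051 (SD, n = 2). Each difference exceeded the spread between the replicates and had the same direction in both. No test was run on them, and the clusters were not matched for length, with which score went on chromosome 4. Interior chromosome 4 clusters under 2 kb had median scores of 0.65 and 0.50 in the replicates, and those of 2 to 5 kb 0.76 and 0.90. The distal arms, with the short clusters given above, had median scores of 0.75 and 0.74. Whether chromosome 4 exceeded the distal arms at like length was not tested. These classes do not hold every cluster of a list. Of the 3564 clusters of replicate 1, 419 lay on the Het scaffolds, 91 in the proximal 1 Mb of 2L and 3L and 1780 on the distal arms. Of the 4467 of replicate 2, these counts were 590, 129 and 2288.

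**Figure D5:**
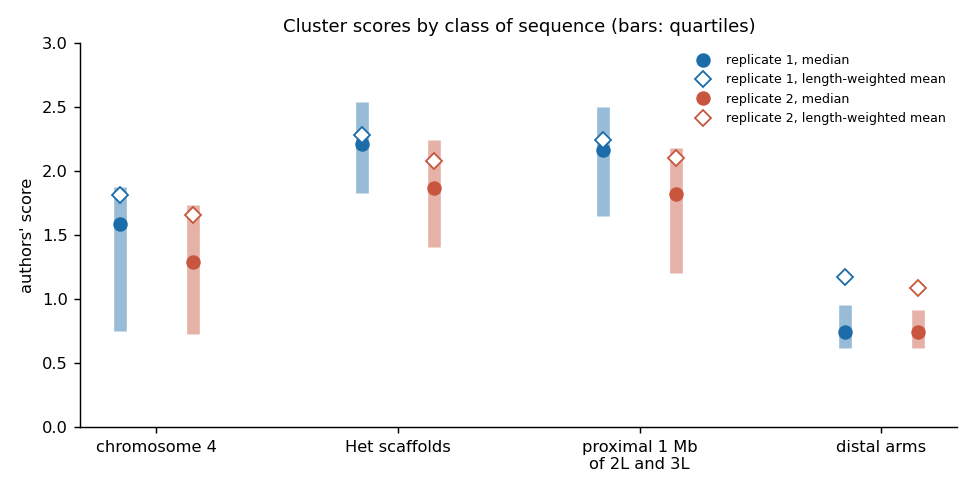
Cluster scores (y axis) on chromosome 4, the Het scaffolds, the proximal 1 Mb of 2L and 3L and the distal arms (x axis) in each replicate: the bar spans the quartiles, the filled point is the median and the open diamond the length-weighted mean. Chromosome 4 lies between the other heterochromatic classes and the distal arms in both replicates, with medians of 1.58 and 1.29.

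The low clusters beside gaps were set against the proximal 1 Mb of 2L and 3L, treated in the same way. On 2L, with 6 gaps of 5 kb or more, the median score beside gaps minus that elsewhere was -0.29 in replicate 1 and -0.81 in replicate 2. On 3L, with 7 such gaps, it was 0.23 and 0.28. Clusters beside gaps on 3L had median lengths of 18735 bp and 9825 bp, against 15253 bp and 8335 bp elsewhere there. On 2L they had 7638 bp and 2450 bp, against 7322 bp and 6365 bp elsewhere, so they were shorter in replicate 2 and not in replicate 1. Each arm had 11 to 13 clusters beside gaps in a replicate. In score, chromosome 4, with -1.08 and -0.73, had the direction of 2L and not that of 3L. These differences between chromosomes were not tested.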

How the data were processed

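HP1a ChIP-seq was done on 2 ChIP and 2 input libraries. The submitters' processing notes list Bowtie 0.12.7. Per the file headers, coordinates are on FlyBase r5. The calling of clusters, the handling of multiply mapping reads and the making of the combined set were not given in the sources used here. Any handling of repeated sequence, common on chromosome 4, can change coverage and gaps. No read depth comes with the lists, and the input libraries were not analysed here. The authors deposited a score per cluster, of unstated scale.

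Rows on chromosome 4 named as enriched were taken as deposited. Overlaps, gaps, windows and Spearman correlations were computed in Python 3.11.15 with numpy 2.4.6 and pandas 2.3.3 and tested on simulated lists. Clusters were put in a part of the chromosome by their midpoint. A pair of clusters met if they shared at least 1 bp, and windows were 50 kb. Alternatives were other gap sizes, gap definitions, length and score minimums, window sizes, merged clusters, 5 parts and each replicate alone. Named regions were the 5 highest-scored and 5 longest clusters, the end clusters, the 10 longest gaps with their neighbours, the 5 most divided clusters and the 5 longest stretches of 1 replicate. The members, lists and rules were chosen with earlier results of these data known. Planned work on genes and base composition was not done, for lack of a genome and annotation of r5. Figures used matplotlib 3.10.9.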

Additional observations from a re-analysis of the deposited data

How the results depend on the processing

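Apart from single replicates, 66 alternative values were computed, of which 34 stayed within 1 SD of the replicates (counts within 1.5 times, window correlations within 0.1), 32 moved further and 0 changed sign as a mean of the replicates. Coverage of the proximal, central and distal parts was 67.2%, 55.5% and 78.6% with clusters under the median score left out, proximal coverage was 88.9% with 5 equal parts, and the combined set gave 75.9% (central) and 87.7% (distal). Mean cluster numbers were 15.5, 14.5 and 13.5 with clusters under 1000 bp apart merged, 14.5 (proximal) and 12 (central) at or above the median score, and 20.0, 46.5 and 13.5 with 5 parts, of which the middle 3 counted as central. Mean median lengths were 13767 bp (distal) after merging and 11614 bp (proximal) with a minimum of 2000 bp. At or above the median score they were 23104 bp, 20145 bp and 13844 bp. The order of the parts by mean length changed with the score limit and with the minimum length. With the score limit the distal part was the shortest in replicate 1 and the longest in replicate 2. With the minimum length the order changed in replicate 1 and not in replicate 2. The score difference proximal minus central was 0.22 with 5 parts and 0.0099 without clusters near the ends. Distal minus central was 0.40 with medians, 0.28 with 5 parts, 0.15 without clusters near the ends and 0.25 in the combined set. Beside gaps the difference was -0.41 with gaps of 2 kb, -0.55 with gaps of the other replicate, -0.63 with clusters of at least 2000 bp, -0.061 with those of at least 5000 bp and -0.22 as a length-weighted mean, the last 2 and the combined-set values being chosen after seeing the data. The correlation of score with distance from a gap was 0.25 with gaps of 2 kb and 0.24 with gaps of 10 kb, against 0.45. That of score and length was 0.65 after merging, and that of window scores 0.58 in windows of 25 kb. The cause of these shifts was not tested. Each replicate alone gave coverage of 78.0% to 86.7%, 65.7% to 71.8% and 80.5% to 85.2%, numbers of 18 to 47, 22 to 31 and 13 to 29, and median lengths of 3894 to 8729 bp, 4983 to 9573 bp and 8862 to 10252 bp. It gave score differences of 0.062 to 0.16 (proximal) and 0.21 to 0.24 (distal), -1.08 to -0.73 beside gaps, and correlations of 0.29 to 0.61 with distance from a gap and 0.69 to 0.82 with length. With 2 replicates each single value lies within 1 SD of their mean by construction, so this range shows nothing about stability. No paired analysis was possible because inputs have no region lists of their own here. Depth per library is unknown, and planned work on genes and base composition was not run.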
